A study of Mus musculus with 3 samples.

Results

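The mevalonate pathway enzymes examined here were 8 listed genes of the route from acetyl-CoA to squalene, of which 7 could be measured among 19938 genes. A gene was measured where the array's platform annotation gave a probe set its symbol and no other, and of several such probe sets the brightest, by its mean, stood for the gene. Hmgcs1, Mvk, Pmvk, Mvd, Idi1, Fdps and Fdft1 were measured. Acat2 had no probe set with its symbol and no other, and was not analysed here. The list does not hold every step of the route.

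The cells were peritoneal macrophages of male Angptl4-/- mice (C57Bl/6J), so all groups lacked the gene for ANGPTL4, a secreted inhibitor of lipoprotein lipase. The macrophages were collected 3 days after 4% thioglycollate, an irritant that recruits inflammatory macrophages to the peritoneum, and were kept in culture for 2 days as adherent cells. The groups were PBS, intralipid (a triglyceride emulsion, 0.5 mM triglyceride) and the same intralipid with recombinant mouse ANGPTL4 at 2.5 µg/mL, which was added 1.5 h beforehand. Exposure lasted 6 h. Each group was 1 array, hybridised with RNA pooled from 3 samples, and the labels give neither the age nor the number of mice. The spread between cultures could therefore not be estimated, no test was possible, and "higher" and "lower" describe these 3 arrays. A mock pre-incubation of the other groups is not described in the labels.

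The mevalonate pathway builds isoprenoid units from acetyl-CoA and joins them into farnesyl diphosphate, which is either committed to cholesterol by squalene synthase or used for protein prenylation, ubiquinone and dolichol. Its genes are classical targets of SREBP2, a membrane-bound transcription factor that is released from the endoplasmic reticulum when sterols are scarce and is held there when sterols are plentiful. In macrophages, which take up lipid from lipoproteins and dead cells, this feedback sets cholesterol synthesis against uptake.

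The promoters of 6 of the 8 listed genes were in the RefSeq promoter table (GRCm38.p6), and 4 of them are shown because they belong to 3 enzymes that were lower with intralipid (Hmgcs1, Idi1, Mvd) and to one whose level barely differed (Mvk). Each runs 5′ to 3′ from 250 bases before to 50 bases after an annotated transcription start. Capitals mark CCAAT, the box bound by NF-Y, a usual partner of SREBP, on either strand (ATTGG on the other), and in Hmgcs1 also TCACCCCAC, a match to the core of the sterol regulatory element. The windows are chr13:119690101-119690400 (plus strand), chr13:8885356-8885655 (plus strand), chr8:122443373-122443672 (minus strand) and chr5:114444019-114444318 (plus strand).
Hmgcs1: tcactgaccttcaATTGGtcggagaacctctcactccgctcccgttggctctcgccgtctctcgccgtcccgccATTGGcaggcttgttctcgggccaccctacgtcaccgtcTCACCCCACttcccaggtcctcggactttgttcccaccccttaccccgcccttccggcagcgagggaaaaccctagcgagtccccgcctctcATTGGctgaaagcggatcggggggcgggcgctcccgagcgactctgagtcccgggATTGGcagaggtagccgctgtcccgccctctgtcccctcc
Idi1: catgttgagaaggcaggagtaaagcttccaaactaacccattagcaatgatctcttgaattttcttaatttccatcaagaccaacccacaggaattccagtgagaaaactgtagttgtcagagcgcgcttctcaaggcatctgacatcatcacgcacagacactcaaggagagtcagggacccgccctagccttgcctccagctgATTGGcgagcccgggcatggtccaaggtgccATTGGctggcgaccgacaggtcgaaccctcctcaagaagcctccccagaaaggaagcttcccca
Mvd: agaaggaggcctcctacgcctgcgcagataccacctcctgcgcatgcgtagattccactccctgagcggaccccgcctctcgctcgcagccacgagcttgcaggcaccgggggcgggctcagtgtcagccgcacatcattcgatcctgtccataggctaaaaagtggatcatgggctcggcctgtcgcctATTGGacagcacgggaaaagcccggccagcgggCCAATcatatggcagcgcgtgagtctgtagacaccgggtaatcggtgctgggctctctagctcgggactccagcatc
Mvk: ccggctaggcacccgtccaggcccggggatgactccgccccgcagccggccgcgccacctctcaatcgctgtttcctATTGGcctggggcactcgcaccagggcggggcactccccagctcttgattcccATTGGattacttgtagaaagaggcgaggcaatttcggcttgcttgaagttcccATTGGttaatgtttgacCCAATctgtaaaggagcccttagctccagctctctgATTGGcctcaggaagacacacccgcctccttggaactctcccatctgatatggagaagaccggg

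The search for the sterol element used TCACNCCAC on both strands, where N is any base, and it overlapped no other motif searched. It was found in 1 of the 7 promoters of these genes (Pmvk has 2), that of Hmgcs1 (from -137 to -129, with 0 the first transcribed base), and in 1.24% of all 32851 promoters of the same length. These 7 promoters include that of Acat2, which was not measured. They include none of Fdps or Fdft1, which were not in the promoter table. CCAAT was found in 5 of the 7 and in 37.4% of all promoters, with 4 matches in Hmgcs1, 2 in Idi1, 2 in Mvd and 5 in Mvk. The Sp1 box GGGCGG was in 5 of the 7 against 35.7% of all, and the E-box CACGTG in 0 of the 7 against 7.15%. A match describes the letters of the window and shows no binding. Mvk had the most CCAAT matches and a level that barely differed, and a relation between matches and differences was not tested.

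Before the results, the cells were checked against the labels. Angptl4 itself read 4.92 (log2) throughout, under the expression floor, which was the median of all named probe sets on an array (4.98, 4.97 and 4.97 for PBS, intralipid and intralipid plus ANGPTL4). This does not check the deletion, since the position of its probes was not analysed here. All 8 macrophage markers passed the floor on every array, and 0 of 3 measured B cell, 0 of 4 T and NK cell, 0 of 3 mast cell and 0 of 3 mesothelial markers passed it on any. Of 4 neutrophil markers 1 passed, and S100a9, Ly6g and Mpo did not. All 4 fibroblast markers passed, with a summed level on the log2 scale of 11.03, 11.05 and 11.03 in that order of arrays. From which cells the enzyme RNA came was not tested. The summed macrophage level was 14.45, 14.54 and 14.53 in the same order. Fewer cells of a type and less RNA per cell cannot be told apart in such bulk RNA.

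All 7 enzymes passed the floor on all 3 arrays. With intralipid, Hmgcs1, Idi1, Fdft1 and Fdps were 2-fold or more below their PBS level, as were 1.32% of all genes past the floor, Mvd was 1.73-fold below it, and Mvk and Pmvk were almost level. With ANGPTL4 added, the first 5 of these lay within 1.18-fold of PBS. A level is given below as the deposited log2 value of 1 probe set, and levels of different genes are not set against each other because probes differ in brightness.

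**Figure D1:**
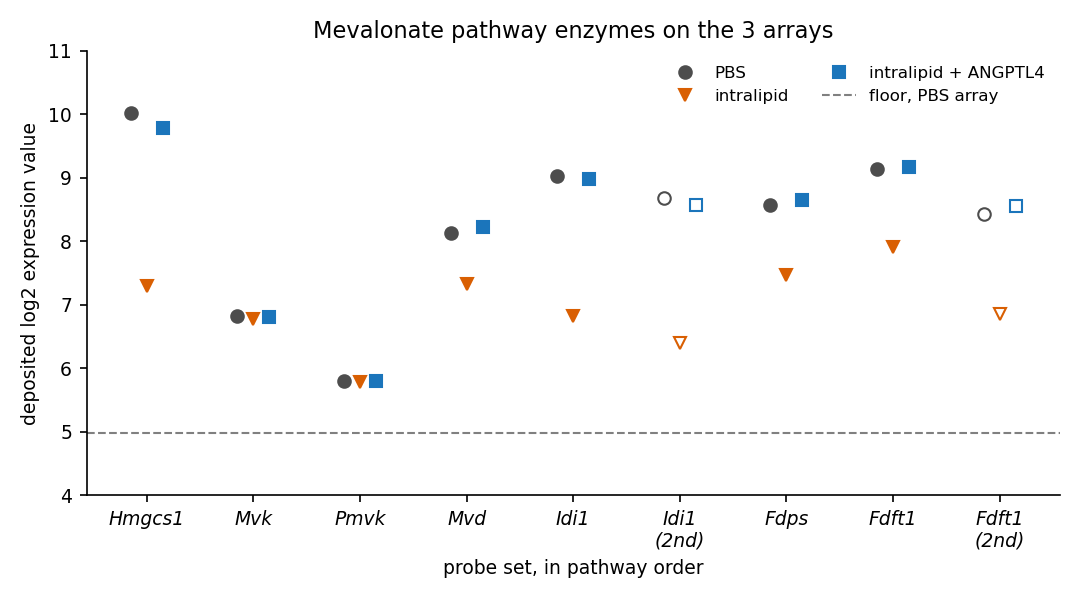
Deposited log2 value (vertical axis) of each probe set of the 7 measured enzymes, in pathway order, on the PBS, intralipid and intralipid plus ANGPTL4 arrays (1 array each, no error bars). Open symbols are the second probe sets of Idi1 and Fdft1, the dashed line is the floor of the PBS array, and only symbols of the same probe set can be compared. The intralipid symbol is lowest for every probe set (after quantile normalization not for Mvk and Pmvk), by 2.72 below PBS for Hmgcs1 and by 0.02 for Pmvk.

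Hmgcs1 encodes the cytosolic HMG-CoA synthase, which condenses acetyl-CoA with acetoacetyl-CoA at the entry of the pathway. Its log2 level was 10.02 under PBS, 7.29 under intralipid and 9.78 when ANGPTL4 was added. The intralipid array was the low one and the array with ANGPTL4 stayed somewhat under PBS. Intralipid was 6.60-fold below PBS, a log2 difference of -2.72, which ranked 2 from the lowest of 10049 genes. With ANGPTL4 the level was 5.60-fold above intralipid alone and 1.18-fold below PBS, a difference of -0.24. That was the largest distance from PBS with ANGPTL4 among the 7 enzymes.

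The kinases that phosphorylate mevalonate showed almost no difference. Mvk, mevalonate kinase, had log2 levels of 6.83, 6.78 and 6.81 on the PBS, intralipid and intralipid plus ANGPTL4 arrays. Pmvk, phosphomevalonate kinase, had 5.81, 5.79 and 5.81, with the same deposited value on the PBS and the ANGPTL4 array. The intralipid array was again the lowest, but by only 0.05 for Mvk and 0.02 for Pmvk. For comparison, the robust SD of the log2 difference of intralipid from PBS over all genes (taken from the central 68% of genes) was 0.20. That is a spread over genes and not between cultures. Pmvk lay nearest to background of the 7, at 0.82 log2 units above the floor on its lowest array.

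Mvd encodes the decarboxylase that turns mevalonate diphosphate into isopentenyl diphosphate, the first isoprenoid unit. Its log2 level was 8.13 under PBS, 7.33 under intralipid and 8.23 when ANGPTL4 was added. The intralipid array was low by 1.73-fold, short of the 2-fold used for counting, and the ANGPTL4 array was 1.86-fold above it. Against PBS, the array with ANGPTL4 was 1.07-fold higher.

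Idi1 encodes isopentenyl diphosphate isomerase, which makes the allylic unit that starts chain growth. It had a log2 level of 9.03 under PBS, 6.82 under intralipid and 8.98 when ANGPTL4 was added. Intralipid stood alone at the low end, 4.63-fold below PBS (a difference of -2.21, rank 6 from the lowest of all genes), and the other arrays differed by -0.05. A second probe set with the Idi1 symbol gave 8.68, 6.40 and 8.57. Both probe sets thus had the same order of arrays, with a difference of intralipid from PBS of -2.28 on the second. Idi2, a relative of Idi1 in the same step, lay below the floor on all arrays with 1 identical log2 value of 2.48.

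The last steps of the list lead to squalene. Fdps, farnesyl diphosphate synthase, had log2 levels of 8.58 under PBS, 7.47 under intralipid and 8.65 when ANGPTL4 was added. Fdft1, squalene synthase, which commits farnesyl diphosphate to sterols, had 9.14, 7.91 and 9.16. In both genes intralipid was the low array and the remaining arrays were close together. Fdps was 2.16-fold and Fdft1 2.34-fold lower with intralipid than with PBS, and with ANGPTL4 they stood 2.26-fold and 2.39-fold above intralipid alone.

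A second probe set of Fdft1 showed the wider gap. Its log2 levels were 8.43, 6.86 and 8.56, so that intralipid differed from PBS by -1.57 on it against -1.23 on the one used. The direction was the same on both, and the difference between probe sets of 1 gene (0.34) exceeded the robust SD over genes. For Idi1 the corresponding gap between probe sets was 0.07. Where on these genes the probes lie was not analysed here.

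**Figure D2:**
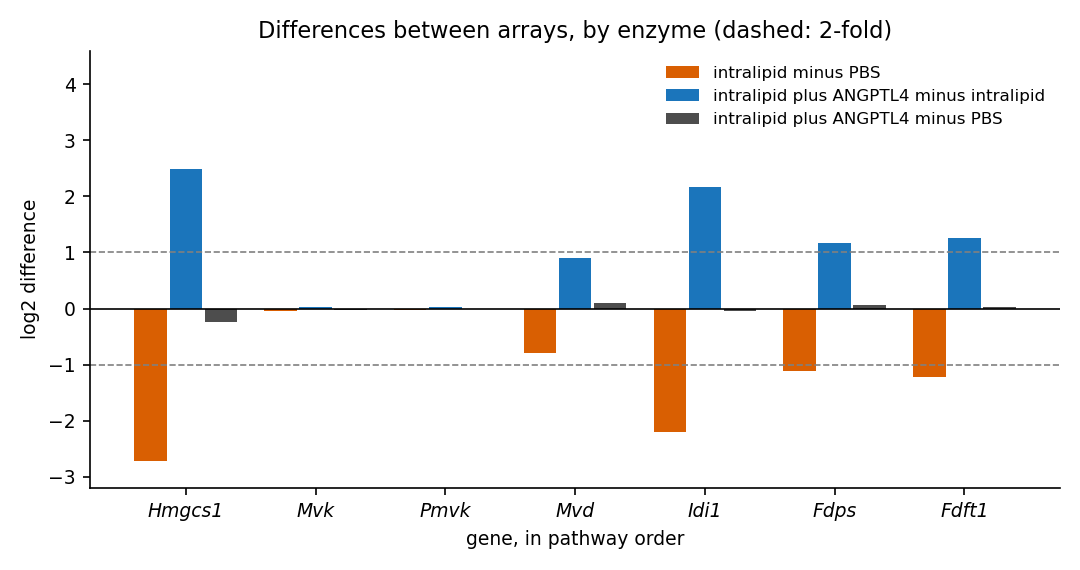
Log2 difference (vertical axis) between arrays for each of the 7 enzymes in pathway order, for intralipid minus PBS, intralipid plus ANGPTL4 minus intralipid, and intralipid plus ANGPTL4 minus PBS (1 array per group, no error bars; dashed lines mark 2-fold). Hmgcs1 and Idi1 have the longest bars (-2.72 and -2.21 for intralipid minus PBS), and the bars of Mvk and Pmvk run only from -0.05 to 0.03.

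Counted over the enzymes, 4 of 7 (Hmgcs1, Idi1, Fdft1 and Fdps) lay 2-fold or more below PBS under intralipid and 0 lay that far above it. Among all 10049 genes whose higher array reached the floor, 1.32% were that much lower and 2.51% that much higher. All 7 enzymes had a negative difference, also with centred, quantile-normalized or cyclic-loess-normalized arrays. Of the 10049 genes as deposited, 4465 had a negative difference, 2357 a positive one and 3227 none. The members' median was -1.11 and that of all genes 0.00. After Hmgcs1 and Idi1, Fdft1 ranked 57, Fdps 89 and Mvd 270 from the lowest, whereas Mvk ranked 3859 and Pmvk 4261.

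No group had ANGPTL4 without intralipid, so an effect of the protein by itself cannot be told from one on the lipid response. Within that limit, intralipid with added ANGPTL4 was compared with intralipid alone. Here 4 of 7 enzymes (again Hmgcs1, Idi1, Fdft1 and Fdps) were up by 2-fold or more and 0 down by as much, beside 2.53% and 2.30% of 10064 genes. All 7 were higher as deposited, beside 4662 higher, 2319 lower and 3083 identical of the 10064 genes. Mvk and Pmvk had the other sign (-0.03 and -0.02) after quantile normalization. The members' median difference was 1.18 and that of all genes 0.00. From the highest, Hmgcs1 ranked 11, Idi1 17, Fdft1 126, Fdps 164 and Mvd 327. This comparison uses the same intralipid array as the one before, so a value that happened to be low on it would appear in both.

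The array with ANGPTL4 against PBS does not use the intralipid array. In it, 0 of 7 enzymes lay 2-fold or more below PBS and 0 as far above, beside 0.0400% and 0.850% of 9995 genes. The differences ran from -0.24 (Hmgcs1) to 0.10 (Mvd), with a median of 0.00, as over all genes. As deposited, 3 enzymes lay below 0, 3 above, and Pmvk was identical. With centred or quantile-normalized arrays 5 lay below and 2 above, as Fdft1 and Pmvk fell below 0. After cyclic loess normalization 4 lay below, Pmvk among them, and 3 above. The robust SD over genes was 0.10 in this comparison. Hmgcs1 lay beyond that spread, at rank 447 from the lowest, Mvd (0.10) was about equal to it and the other 5 lay within it.

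**Figure D3:**
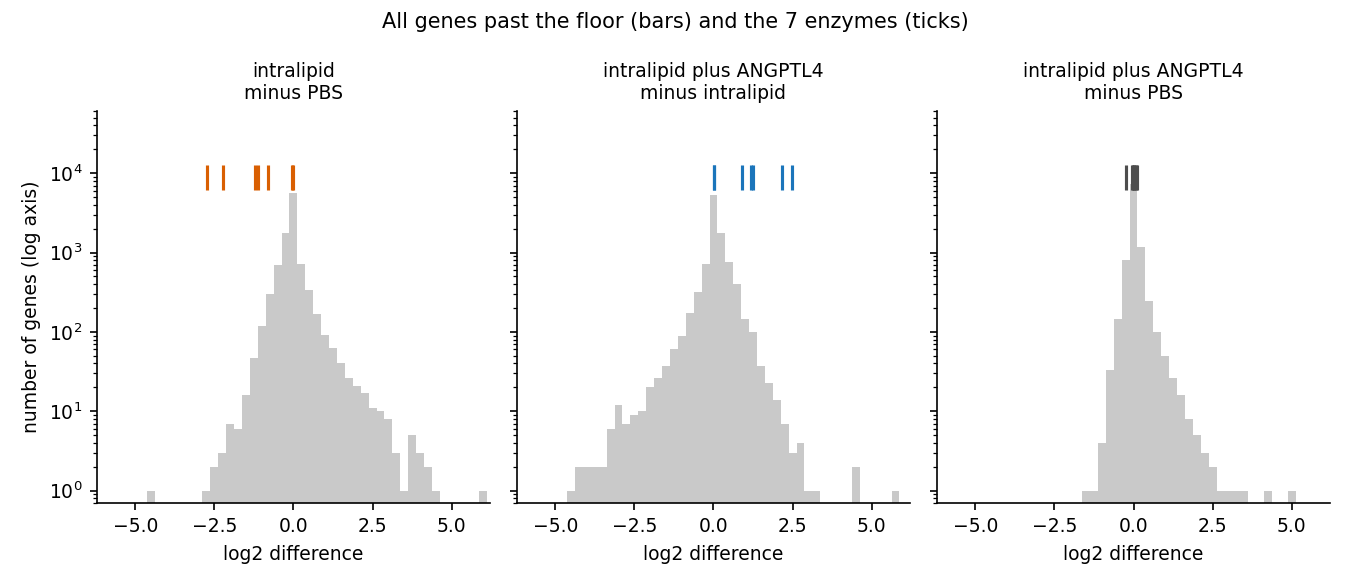
Number of genes (vertical, log axis) by log2 difference (horizontal, in bins of 0.25) for the 3 comparisons, over 10049, 10064 and 9995 genes. Coloured ticks mark the 7 enzymes, which reach down to -2.72 for intralipid minus PBS, up to 2.48 for intralipid plus ANGPTL4 minus intralipid, and lie between -0.24 and 0.10 for intralipid plus ANGPTL4 minus PBS.

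Genes around the pathway were described from lists to see how far the pattern extended. These lists were chosen with earlier results of these data known and give no independent support. Of 4 genes that supply acetyl-CoA, 0 were 2-fold lower with intralipid and 1 was 2-fold higher, beside 1.32% and 2.51% of all genes. Their median difference was -0.10. Acly, the ATP citrate lyase that makes cytosolic acetyl-CoA, differed by -0.31, Slc25a1, the mitochondrial citrate carrier, by -0.21, and Acss2, a cytosolic acetyl-CoA synthetase, had 1 identical value on all arrays. Acss1, the mitochondrial acetyl-CoA synthetase, went the other way, with log2 levels of 6.48, 7.64 and 6.15 on the PBS, intralipid and ANGPTL4 arrays. It was thus 2.23-fold higher with intralipid and 2.81-fold lower with ANGPTL4 than without.

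Among 10 related and ketone body genes, 8 were measured and 3 passed the floor. Acat1, the mitochondrial acetoacetyl-CoA thiolase, had log2 levels of 7.21, 6.60 and 7.21 on the PBS, intralipid and ANGPTL4 arrays. Aacs, which makes acetoacetyl-CoA in the cytosol, had 6.91, 6.09 and 6.77. Oxct1, which activates acetoacetate in mitochondria, had 9.65, 9.38 and 9.31. Acat1 and Aacs shared the low intralipid value and Oxct1 did not come back with ANGPTL4. In any comparison, 0 of the 3 reached 2-fold, beside 0.0400% to 2.53% of all genes by comparison and direction. With only 3 genes, a count of 0 says little. Acat3, a close relative of Acat2, was below the floor on all arrays (3.05, 3.05 and 3.22).

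Downstream of squalene, 11 of 12 sterol synthesis genes were measured, and all 11 passed the floor. With intralipid, 10 were lower than with PBS, 0 higher and 1 identical, beside 4465 lower, 2357 higher and 3227 identical of all 10049 genes. By 2-fold or more, 3 of the 11 were lower, beside 1.32% of all genes, and the median difference was -0.84. Those 3 were Cyp51, the lanosterol demethylase (-1.89), Msmo1, the sterol C4 methyl oxidase (-1.08), and Sc5d, a sterol desaturase (-1.01), which fell short of 2-fold after cyclic loess normalization. The identical gene, Tm7sf2, took either sign with the scaling. With ANGPTL4 against intralipid alone, 3 were up by 2-fold or more, beside 2.53% of all genes. They were Cyp51 (1.95), Hsd17b7, a 3-ketosteroid reductase (1.14), and Msmo1 (1.07). The median was 0.69, and against PBS it was 0.00.

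The other outlets of farnesyl diphosphate looked different. Of 20 genes of prenylation, ubiquinone, dolichol and related branches, 18 were measured and 16 passed the floor, with a median difference of -0.01 between intralipid and PBS. In that comparison 8 were lower, 5 higher and 3 identical (8 to 11 lower and 5 to 8 higher under the other scalings). By 2-fold or more, 1 was lower, beside 1.32% of all genes. Ggps1, which extends farnesyl to geranylgeranyl diphosphate, had log2 levels of 7.83, 7.91 and 7.89 on the PBS, intralipid and ANGPTL4 arrays.

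The exception was Fnta, the alpha subunit shared by the enzymes that attach farnesyl and geranylgeranyl groups to CAAX proteins. Its log2 levels were 7.82 under PBS, 6.44 under intralipid and 7.90 when ANGPTL4 was added, 2.59-fold lower with intralipid and 2.74-fold higher again with ANGPTL4. Pggt1b, its partner subunit for geranylgeranylation, did not share that low value, with 8.25, 8.69 and 8.41, and Fntb, its partner for farnesylation, was below the floor with 4.63 on each array. Nus1, a subunit of the dolichol-forming prenyltransferase, was 10.28, 10.70 and 10.19, so its intralipid value was the high one. Pcyox1, on the same list, went the way of Fnta short of 2-fold. Its log2 difference was -0.50 for intralipid against PBS and 0.53 for added ANGPTL4 against intralipid alone.

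Of 8 regulators of the SREBP system, 7 were measured and past the floor, with a median difference of -0.10 between intralipid and PBS. Stard4, a sterol carrier, had log2 levels of 7.74 under PBS, 5.75 under intralipid and 7.68 when ANGPTL4 was added. Insig1, which retains the SREBP complex in the endoplasmic reticulum and is itself a target, was 10.45, 9.50 and 10.51. Stard4 was the 1 member 2-fold or more below PBS under intralipid, beside 1.32% of all genes. With ANGPTL4, Stard4 and Insig1 exceeded intralipid alone by 2-fold or more (1.93 and 1.01 on the log2 scale), beside 2.53% of all genes. After quantile or cyclic loess normalization Insig1 fell short of 2-fold. Srebf2, which encodes SREBP2, was 8.72, 8.34 and 8.80, and Srebf1 and Scap each had 1 identical value on all arrays.

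**Figure D4:**
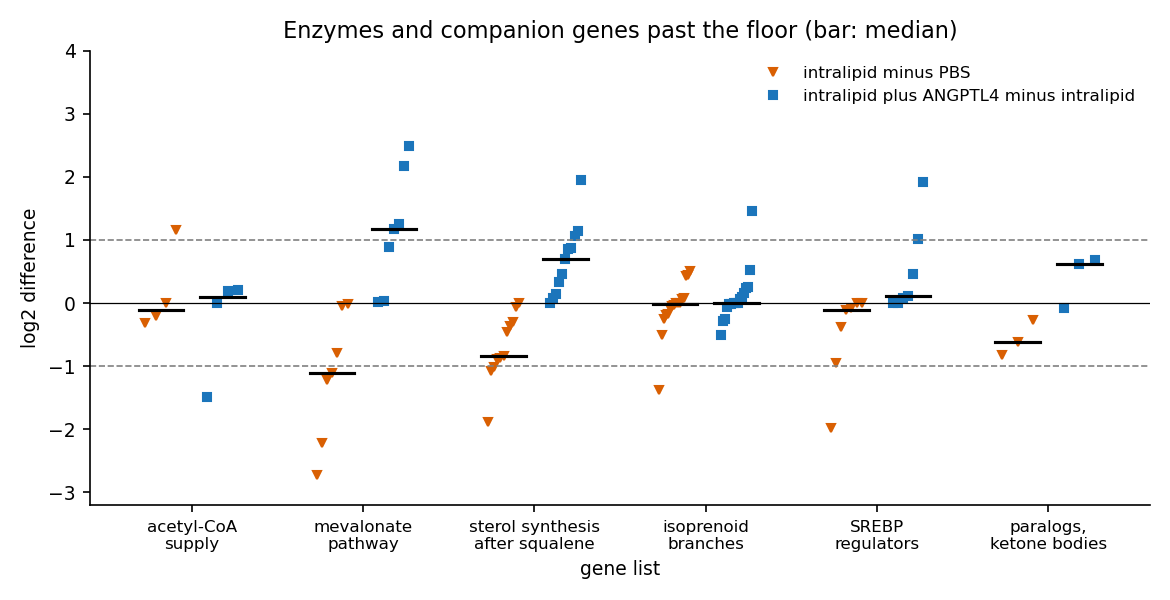
Log2 difference (vertical axis) of each gene past the floor in 6 lists, for intralipid minus PBS (triangles) and intralipid plus ANGPTL4 minus intralipid (squares), with a bar at the list's median and dashed lines at 2-fold. The medians for intralipid minus PBS are -1.11 for the mevalonate enzymes, -0.84 for the sterol enzymes after squalene and -0.01 for the isoprenoid branches.

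Likeness was measured as the Euclidean distance between log2 values over the 3 arrays, each gene centred on its own mean. The candidates were 9802 genes past the floor on at least 1 array, with the 7 enzymes and uncharacterised genes left out. Between Hmgcs1 and Idi1 themselves the distance was 0.36. The other genes closest to Hmgcs1 were Hhex, a homeobox factor (distance 0.15), Stard4 (0.54), Chst12, a chondroitin sulfotransferase (0.55), Cyp51 (0.60) and Lpcat1, a lysophospholipid acyltransferase (0.61). Outside the 7 enzymes, closest to Idi1 were Stard4 (0.19), Hhex (0.22), Cyp51 (0.23), Extl3, a heparan sulfate glycosyltransferase (0.26), and Chst12 (0.29). Only Stard4 and Cyp51 among these were on the lists above. Hhex, for example, had log2 levels of 7.73, 5.21 and 7.61, a low intralipid array much as in Hmgcs1. The median profile of the 7 enzymes was that of Fdps (distance 0), and the genes closest to it outside them were G3bp2 (0.0095), Clec4a2 (0.018), Tmppe (0.018), Rap2b (0.026) and Klhl42 (0.032), none of them on any list used here. On the intralipid array, with its floor of 4.97, Klhl42 (4.59) lay below the floor and Clec4a2 (4.98) close to it. With 3 arrays a profile holds few values, so many genes can lie close to it.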

How the data were processed

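Gene expression of 3 pooled RNA samples was measured on 3 arrays. The authors deposited log2 values for each probe set, made with RMA, which corrects background, normalizes arrays and summarises probes, per the submitters' processing notes. Its version is not given in the sources used here. Of 35556 probe sets, 14722 (41.4%) had the same value 3 times, so a difference of 0 is common. Platform annotation gave 1 symbol to 21789 probe sets, several to 1621 and none to 12146. The 7 measured members kept their symbol in RefSeq.

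Values were used as deposited (Python 3.11.15, pandas 2.3.3). A gene entered a comparison where its higher array reached the floor, the median of named probe sets, and was counted at a 2-fold difference. Alternatives were folds of 1.5 and 3, no floor, the 75th percentile as floor, median centring, quantile and cyclic loess normalization (limma 3.58.1) and the mean over a gene's probe sets. With 1 array per group no test was run, and the number of arrays limits the precision. The calculation was run on simulated arrays with known shifts and no noise. That checks the arithmetic only and says nothing on how reliable single arrays are. Named were all members, listed companion genes at least 2-fold apart, set paralogs, the 5 genes nearest in profile and Angptl4. Other companion genes (such as Acly, Slc25a1, Acss2, Aacs, Oxct1, Ggps1, Pggt1b, Fntb, Nus1, Pcyox1, Srebf1, Srebf2 and Scap) were chosen after their values were seen. Members and lists were chosen with earlier results of these data known. A planned comparison of protein sequences was not run.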

Additional observations from a re-analysis of the deposited data

How the results depend on the processing

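The counts of enzymes at least 2-fold apart, their medians and each enzyme's difference were recomputed under 8 alternative settings in the 3 comparisons. At a threshold of 3-fold, 2 enzymes (Hmgcs1 and Idi1) were lower under intralipid than under PBS and 2 were higher when ANGPTL4 was added, in place of 4 and 4, because Fdps and Fdft1 lie between 2-fold and 3-fold. Over all genes, 0.199% were that much lower and 0.586% that much higher in these comparisons. At 1.5-fold, Mvd joined the 4 and both counts were 5, beside 5.57% and 8.26% of all genes. The other settings left all counts at 4 or 0. Beside the counts of 4, 0.677% (no floor) to 1.94% (75th percentile) of all genes were lower with intralipid. For added ANGPTL4, 1.31% to 3.62% were higher under the same settings. The counts of 0 stood beside 0.0201% to 4.15% of all genes. No enzyme's difference moved by more than 0.22 on the log2 scale, the largest shift being that of Fdft1 when its probe sets were averaged. With the floor at the 75th percentile, 5 enzymes were left, so the counts were 4 of 5. The enzymes lost were Mvk and Pmvk, whose levels barely differed. The normalizations moved differences by at most 0.061. Signs turned for differences near 0: Mvk (-0.033) and Pmvk (-0.018) for ANGPTL4 against intralipid alone after quantile normalization, and Fdft1 for ANGPTL4 against PBS after centring (-0.0068) and quantile normalization (-0.022). No paired analysis was possible because each group has 1 array. Signal over background limits Pmvk most among the 7 enzymes.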
